A study of Mus musculus with 6 samples.

Results

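The Gimap genes of the mouse, listed as Gimap1, Gimap3, Gimap4, Gimap5, Gimap6, Gimap7, Gimap8 and Gimap9, were taken as all probes annotated to these 8 symbols on an Illumina mouse expression array. Of the 8 genes 7 had a probe, and these genes had 12 of the 45263 probes used; the whole array named 19057 genes. Gimap3 had none in the annotation used here and was not analysed. RNA came from mature natural killer T (NKT) cells of the thymus of male C57BL/6 mice, all positive for CD44 and NK1.1, which were sorted into CD103+ cells (3 arrays) and CD103- cells (3 arrays) and given as biological replicates. CD103 is the integrin chain encoded by Itgae. No label gives a mutant allele or a treatment for either population, and neither the age of the mice nor any pooling of animals is given in the sources used here. The comparison asks how transcripts of CD103+ NKT cells differ from those of CD103- NKT cells in a series concerned with DOCK8, a regulator of the actin cytoskeleton.

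Gimap proteins (GTPases of the immunity-associated protein family) carry a GTP-binding domain of the AIG1 type, and several are anchored to membranes inside the cell. They are found mainly in lymphocytes and are best known for their part in lymphocyte survival: T cells are lost from animals that lack Gimap1 or Gimap5. NKT cells are T cells whose semi-invariant receptor recognises lipids on CD1d, and most of them mature in the thymus.

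The 8 genes stand side by side on chromosome 6, in the RefSeq annotation of build GRCm38.p6, from Gimap8 at chr6:48647186-48660875 to Gimap3 at chr6:48764464-48770851, a span of 123666 bases. Their order is Gimap8, Gimap9, Gimap4, Gimap6, Gimap7, Gimap1, Gimap5 and Gimap3. No other protein-coding gene was annotated between them. The 250 bases before a start in the promoter annotation are shown for 4 of the genes. They are Gimap7, the member with the largest difference between the populations, and Gimap6, the next by brightest probe. The others are Gimap9, the member with the smallest, and Gimap5, whose 2 probes differed from each other. That start is not always the first base of the gene: the Gimap9 window ends at 48676134, while the gene is annotated from 48676121. Sequences are from RefSeq (GRCm38.p6) and read 5′ to 3′ on the strand of the gene. Capitals mark matches to TTCNNNGAA (a STAT pattern), AGGAAGT (an ETS pattern) and TATAAA, on either strand.
Gimap7, chr6:48718371-48718620, plus strand: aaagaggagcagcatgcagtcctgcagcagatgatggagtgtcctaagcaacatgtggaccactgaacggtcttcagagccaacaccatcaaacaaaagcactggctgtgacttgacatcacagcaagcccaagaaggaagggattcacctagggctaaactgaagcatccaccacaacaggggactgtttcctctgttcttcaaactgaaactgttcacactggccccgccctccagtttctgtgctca
Gimap6, chr6:48708245-48708494, minus strand: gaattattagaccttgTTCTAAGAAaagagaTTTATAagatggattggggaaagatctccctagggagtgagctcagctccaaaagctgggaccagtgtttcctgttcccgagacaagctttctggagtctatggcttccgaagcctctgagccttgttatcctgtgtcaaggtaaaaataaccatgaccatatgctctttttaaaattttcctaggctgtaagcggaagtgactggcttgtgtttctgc
Gimap9, chr6:48675885-48676134, plus strand: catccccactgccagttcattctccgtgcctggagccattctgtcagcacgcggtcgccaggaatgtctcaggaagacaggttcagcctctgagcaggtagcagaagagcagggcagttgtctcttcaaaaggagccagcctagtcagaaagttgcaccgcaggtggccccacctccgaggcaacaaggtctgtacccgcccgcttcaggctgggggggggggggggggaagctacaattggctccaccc
Gimap5, chr6:48745947-48746196, plus strand: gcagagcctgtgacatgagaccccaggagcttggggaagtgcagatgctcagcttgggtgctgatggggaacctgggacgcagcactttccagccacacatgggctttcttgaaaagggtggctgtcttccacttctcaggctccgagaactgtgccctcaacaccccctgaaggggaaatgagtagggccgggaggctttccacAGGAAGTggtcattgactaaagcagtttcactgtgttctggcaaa
The TTCNNNGAA pattern was present in the Gimap6 window (TTCTAAGAA) and in 1 of 2 Gimap8 windows (TTCCTAGAA). It was present in 7.02% of the 32851 mouse windows of the same length. The 2 Gimap8 windows, at 48646984-48647233 and 48647111-48647360, both end inside the gene, which is annotated from 48647186. The match is in the second of them, 47 to 39 bases before the start used, and so lies within the gene. AGGAAGT was present before Gimap5 (7.69% of windows) and TATAAA, on the other strand, before Gimap6 (12.4% of windows). The ETS pattern CCGGAAGT, which shares the letters GGAAGT with AGGAAGT, was in no window of the 8 genes (2.88% of windows). Also absent from the 8 genes' windows were TGTGGTT for RUNX factors (4.40%), ATCAAAG for TCF and LEF (3.21%), AGATAA for GATA factors (9.99%), AGGTGTGA for T-box factors (1.12%), GGGTGTGG for KLF factors (3.20%), CAGCTG for E proteins (4271 of the 32851 windows) and GTGGGAA for the Notch partner RBPJ (5.42%). The window before Gimap7 held none of the 11 patterns. Guanine and cytosine made up 50.8% of the Gimap7 window, 43.6% of that of Gimap6, 61.2% of that of Gimap9 and 55.6% of that of Gimap5, against a median of 52.4% over all windows.

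The arrays differed in brightness, which touches every value below. The mean fluorescence signal was 501.64 to 825.86 on the CD103+ arrays, against 526.15, 277.35 and 276.51 on CD103- arrays 1, 2 and 3. CD103- array 1 was also closer to the CD103+ arrays than to its own population: after normalisation it correlated over the kept probes at 0.976, 0.972 and 0.974 with CD103+ arrays 1, 2 and 3, and at 0.964 and 0.966 with CD103- arrays 2 and 3. Signals were background-corrected, quantile-normalised and put on the log2 scale, and a probe was called detected on an array at a detection p under 0.05. The label of the sort was borne out by Itgae, at log2 signals of 13.60 ± 0.19 in CD103+ cells and 8.87 ± 0.24 in CD103- cells (SD, n = 3 each), while Klrb1c, which encodes NK1.1, and Cd44 were detected on all 6 arrays, at differences of -0.46 and -0.10.

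CD103+ cells had less Gimap7 signal than CD103- cells, by 2.12 on the log2 scale, and lower mean signals of every other measured Gimap gene by smaller amounts. Of these, Gimap4 and Gimap9 overlapped between the populations. Under median scaling, which moved the median of all kept probes to 0.96, the Gimap genes other than Gimap7 lay above 0 and below that median. The sign of Gimap9 also turned against CD103- array 1 alone and with array brightness as a covariate. Of the 12 Gimap probes, 9 were detected on all 6 arrays, 1 or 2 for each of the 7 genes, and all 9 had a log2 difference (CD103+ minus CD103-) below 0, from -2.12 to -0.18, as did 44.2% of the 17462 probes kept in the fit. On 7 of these 9 probes every CD103+ array lay below every CD103- array, as on 8.92% of all kept probes. The median over the 9 probes was -0.70, or -0.60 without Gimap7, beside a median of 0.04 over all kept probes. In the limma fit across all kept probes, with a Benjamini-Hochberg adjusted p under 0.05, 1 of the 9 probes was called, that of Gimap7, and 1.18% of all kept probes were called in either direction, 0.252% as lower in CD103+ cells and 0.928% as higher. The 206 calls were 44 lower and 162 higher, against 87 and 155 by cyclic loess, 24 and 44 by median scaling with centring and 11 and 7143 by median scaling without it; with the replicate number as a block there were 8 lower and 75 higher, the Gimap7 call among them. The family was chosen by values of this same contrast, CD103+ against CD103- signal with Gimap7 among the probes of largest decrease, so these counts and the differences below describe the data, and nothing was read from them as a test. In sorted populations a lower signal from fewer cells with the transcript and one from less RNA per cell cannot be told apart.

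**Figure D1:**
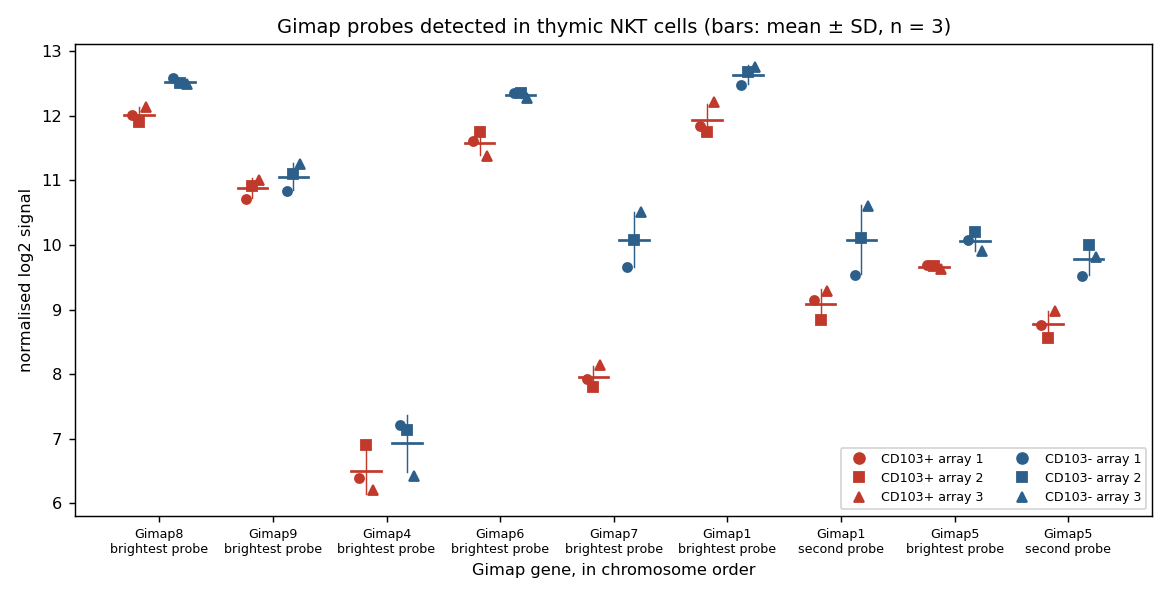
Normalised log2 signal (vertical axis) of the 9 detected Gimap probes in chromosome order, with CD103+ arrays (red) left of CD103- arrays (blue), 1 symbol per array and bars for mean ± SD (n = 3). Gimap7 shows the widest gap, with CD103+ arrays at 7.81 to 8.15 and CD103- arrays at 9.65 to 10.51, while Gimap4 and Gimap9 overlap.

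Gimap7, whose human counterpart can speed up GTP hydrolysis by another family member, was measured by 1 probe, ILMN_2595918. Its normalised log2 signals were 7.92, 7.81 and 8.15 on CD103+ arrays 1, 2 and 3, and 9.65, 10.08 and 10.51 on CD103- arrays 1, 2 and 3. The populations did not overlap: the lowest CD103- array lay above the highest CD103+ array. The means were 7.96 ± 0.17 in CD103+ cells and 10.08 ± 0.43 in CD103- cells (SD, n = 3 each), a difference of -2.12 (SE 0.23), or 4.35-fold lower in CD103+ cells. Only 8 of the 17462 kept probes had a lower value, Gimap7 being number 9 from the low end. In the deposited signals before normalisation Gimap7 read 446.3398, 603.662 and 401.5259 on the CD103+ arrays, against 939.8481, 466.6339 and 588.5245 on the CD103- arrays. Before any scaling the bright CD103- array 1 was therefore above all CD103+ arrays, and the dim CD103- arrays 2 and 3 lay within their range. Gimap7 was the only one of the 12 Gimap probes whose mean deposited signal was lower in CD103+ cells, at 0.728 of that in CD103- cells, the others lying at 1.13 to 2.27. Against CD103- array 1 alone, the array of similar brightness, the difference of Gimap7 was -1.69, and it was -1.89 in the authors' deposited log2 values. Gimap7 was not called when any 1 of the CD103+ arrays was left out, at differences of -2.10, -2.04 and -2.22 without CD103+ array 1, 2 and 3, and it was called when CD103- array 1, 2 or 3 was left out.

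**Figure D2:**
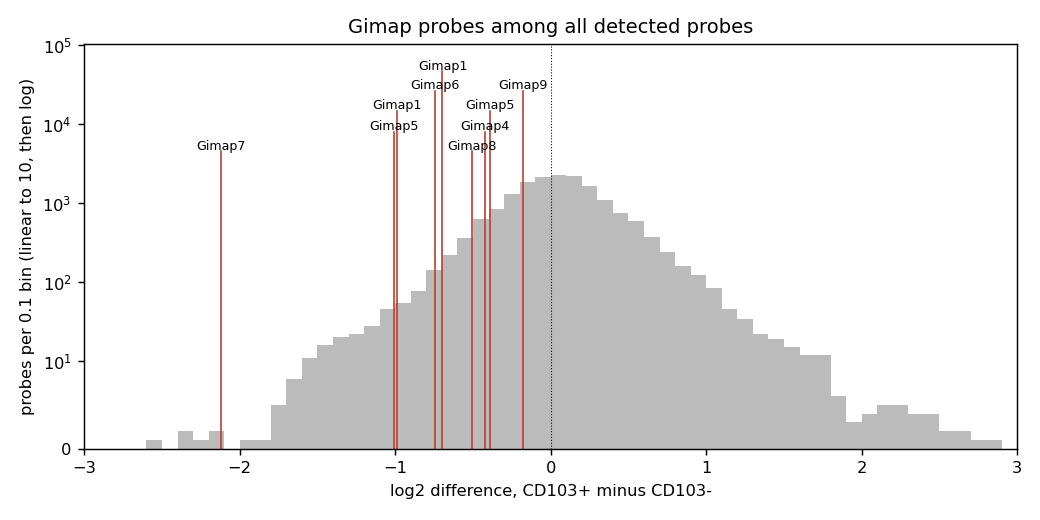
Number of kept probes (vertical axis, linear to 10 and logarithmic above) per 0.1 bin of log2 difference, CD103+ minus CD103- (horizontal axis), with the 9 Gimap probes as red lines, whose heights only keep the names apart. All 9 lines stand left of 0 (under median scaling only that of Gimap7 does), with Gimap7 at -2.12 and the others from -1.01 to -0.18. Gimap9 also turned above 0 against CD103- array 1 alone and with array brightness as a covariate. The axis is drawn from -3 to 3.

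Gimap1 and Gimap5, the members whose loss depletes T cells, had 2 detected probes each. The brighter Gimap1 probe, ILMN_3141165, read 11.84, 11.75 and 12.22 in CD103+ cells, against 12.47, 12.69 and 12.75 in CD103- cells. Its difference was -0.70 (SE 0.18), with no overlap between the populations. The second Gimap1 probe, ILMN_2722346, read 9.15, 8.84 and 9.29 in CD103+ cells, against 9.53, 10.11 and 10.60 in CD103- cells. It gave a difference of -0.99 (SE 0.28), again with no overlap, and CD103- array 1 lay closest to the CD103+ arrays. Both Gimap1 probes thus pointed the same way at similar size.

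For Gimap5, which acts in the survival of T cells and of the quiescent lymphocyte pool, the probes gave differences of unequal size. The brighter one, ILMN_2643096, read 9.69, 9.67 and 9.64 in CD103+ cells, against 10.07, 10.20 and 9.90 in CD103- cells, a difference of -0.39 (SE 0.14). The second, ILMN_2701332, read 8.77, 8.57 and 8.98 in CD103+ cells, against 9.51, 10.01 and 9.82 in CD103- cells, a difference of -1.01 (SE 0.19). Neither probe showed overlap, and the second one had the largest difference after Gimap7. Gimap5 and Gimap3 are close relatives, and the RefSeq gene table lists Gimap5 also as an older name of Gimap3; which of these transcripts each probe binds was not tested. Gimap3 itself, a protein of mitochondria in the mouse, had no probe.

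Gimap6, which binds a protein of the autophagy machinery, read 11.61, 11.76 and 11.38 in CD103+ cells, against 12.35, 12.35 and 12.28 in CD103- cells on its probe ILMN_1224859. The difference was -0.74 (SE 0.15), and the 3 CD103- arrays lay within an SD of 0.04. Gimap8, a large member with more than 1 GTP-binding domain, read 12.02, 11.90 and 12.14 in CD103+ cells, against 12.58, 12.51 and 12.49 in CD103- cells on ILMN_3088269, a difference of -0.51 (SE 0.14). In both genes every CD103+ array was below every CD103- array. The other 2 Gimap8 probes, ILMN_1224195 and ILMN_1237662, were not well above background on any array and give no difference between the populations.

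Gimap4 and Gimap9 did overlap. Gimap4, which is linked to the death of T cells, was measured by ILMN_1225854 with deposited signals of 194.1942 to 389.094 in CD103+ cells and 151.3537 to 278.1047 in CD103- cells, with detection p of at most 0.00321. Its log2 signals were 6.40, 6.91 and 6.21 in CD103+ cells, against 7.22, 7.14 and 6.43 in CD103- cells. CD103- array 3 lay among the CD103+ arrays, and the difference was -0.42 (SE 0.27). A second Gimap4 probe, ILMN_2757526, was detected on no array, with detection p of 0.279 to 0.638. Gimap9 read 10.72, 10.92 and 11.01 in CD103+ cells, against 10.84, 11.09 and 11.25 in CD103- cells on ILMN_1236553, a difference of -0.18 (SE 0.17). Against CD103- array 1 alone the sign of Gimap9 turned, at 0.04.

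The genes on both sides of the cluster were compared because they share its stretch of the chromosome. Of the 10 protein-coding genes nearest to the cluster, 5 on each side, 5 were measured, 1 was called as higher in CD103+ cells and none as lower, with 2 of 5 differences below 0 and a median of 0.04. Over all 8999 genes, each by its brightest probe, 1.16% were called as higher in CD103+ cells and 0.222% as lower, 1.38% in all, and the median was 0.05. Tmem176b and Tmem176a, which encode related membrane proteins and follow Gimap3, lay on the opposite side of 0 from the Gimap genes. Tmem176b averaged 8.35 ± 0.23 in CD103+ cells and 7.13 ± 0.62 in CD103- cells (SD, n = 3 each), a difference of 1.22 (SE 0.31, limma adjusted p = 0.138), and its populations did not overlap. Tmem176a, detected on the 3 CD103+ arrays alone, exceeded the CD103- bound by at least 1.38-fold (limma adjusted p = 0.0424, and 0.0950 with the replicate number as a block). It was also not called without any 1 of the CD103+ arrays (limma adjusted p = 0.0780 to 0.203) or without CD103- array 2 or 3 (0.0877 and 0.102). Repin1 at 0.04, Rarres2 at -0.31 and Aoc1 at -0.29 overlapped between the populations.

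**Figure D3:**
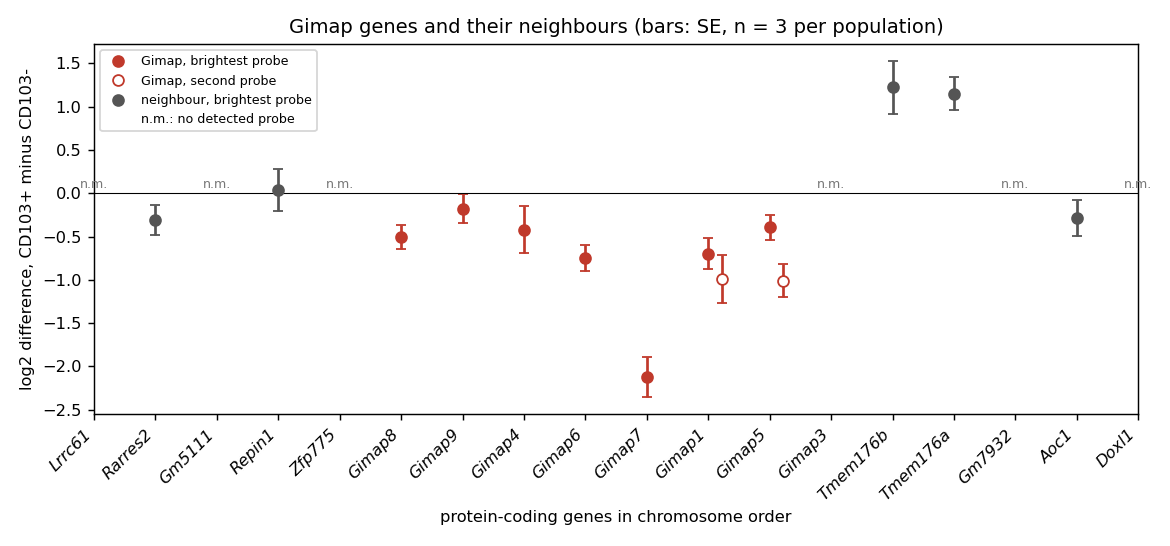
Log2 difference, CD103+ minus CD103- (vertical axis), of the Gimap genes (red) and the neighbouring protein-coding genes (grey) in chromosome order, with SE bars (n = 3 per population). Open circles are second probes and n.m. marks genes with no detected probe. Every measured Gimap gene lies below 0 here (under median scaling only Gimap7 does), Gimap7 lowest at -2.12. Gimap9 also turned above 0 against CD103- array 1 alone and with array brightness as a covariate. Tmem176b and Tmem176a lie at 1.22 and 1.15, that of Tmem176a being against CD103- arrays on which it was not detected.

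Lists of genes linked to the family by function were read against the 1.38% called over all genes, a share at which lists of this size would hold few or no calls. Members of the BCL2 family, which set the threshold for cell death and some of which Gimap proteins can bind, had 11 of 16 genes measured, with none called by its brightest probe and a median of 0.18. In this list Bcl2, the survival factor itself, lay at -0.39 (SE 0.17, limma adjusted p = 0.350) by its brightest probe, with every CD103+ array below every CD103- array. The Bcl2 probes disagreed on the call: of 6 kept probes, all with differences below 0, ILMN_2682162 was called at -1.17 (limma adjusted p = 0.0202). Of 14 autophagy genes, which include the ATG8 relatives, 13 were measured and none was called (median -0.12); Gabarapl2, which encodes the ATG8 relative that Gimap6 binds, lay at 0.25 (SE 0.45). Of 20 interferon-inducible GTPase genes, the Gbp, Irg and Mx families that share GTP binding with Gimap proteins, 13 were measured and none was called (median -0.12, from -0.54 to 0.25). None of 9 measured genes of the Notch pathway was called (median -0.10).

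Genes of T cell maturation and exit from the thymus, during which levels of Gimap genes are known to change, had 14 of 19 genes measured, 1 called as higher in CD103+ cells and none as lower (median -0.03), beside 1.16% and 0.222% of all genes. The gene called was Klf2, a transcription factor that keeps T cells quiescent and drives their exit, at 10.66 ± 0.17 in CD103+ cells and 9.32 ± 0.24 in CD103- cells (SD, n = 3 each), a difference of 1.34 (SE 0.18, limma adjusted p = 0.0199). Without CD103+ array 1, 2 or 3 or CD103- array 3, Klf2 was not called (limma adjusted p = 0.0766, 0.123, 0.110 and 0.0579). Il7r, the receptor chain for the survival cytokine IL-7, lay at 0.64 (SE 0.13, limma adjusted p = 0.0786) by its brightest probe, with every CD103+ array above every CD103- array. Of its 5 kept probes, all above 0, ILMN_2659739 was called at 0.99 (limma adjusted p = 0.0172). The Gimap genes lay on the other side of 0 from Klf2 and Il7r, but not from the list as a whole. Of its 14 measured genes, 7 lay below 0, as the Gimap genes did, and the range was -0.57 to 1.34. In 2 of them every CD103+ array was below every CD103- array, and in 4 every CD103+ array was above. Bcl2, Gabarapl2 and Il7r were named for their known link to the family after their values were seen.

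By the pattern over the 6 arrays, the genes nearest to Gimap7 were no Gimap genes. Each gene's log2 signals were centred on their mean over the arrays and set against those of Gimap7 by the root mean square difference, over 8998 genes. The nearest were Tmem273 (0.34), Serpina3f, a serine protease inhibitor (0.38), the histone kinase Haspin (0.40), Asb2, a substrate-binding part of a ubiquitin ligase (0.40), and the potassium channel Kcnh6 (0.47), all lower in signal on every CD103+ array than on every CD103- array. The differences of these 5 genes were -1.59, -1.49, -1.34, -1.54 and -1.22, all smaller as measured than that of Gimap7. Tmem273 lay near the detection limit in CD103+ cells, at 5.29, 5.28 and 5.36, and went undetected on CD103+ array 2 (detection p 0.0609). Its difference may therefore be understated, which also touches its rank. Of the other Gimap genes Gimap1 came nearest, at 0.73 and rank 105, followed by Gimap6 at 0.77 and rank 163, with Gimap4 farthest at 1.02 and rank 2009. The distance was not scaled, so a gene with a much smaller difference between the populations could not come near Gimap7. The ranks of the other Gimap genes therefore in part restate their smaller differences and do not show an unlike pattern. The 5 nearest genes were picked on these same arrays, and their shared direction follows from that choice. The likeness rests on 6 arrays and is given as a description.

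**Figure D4:**
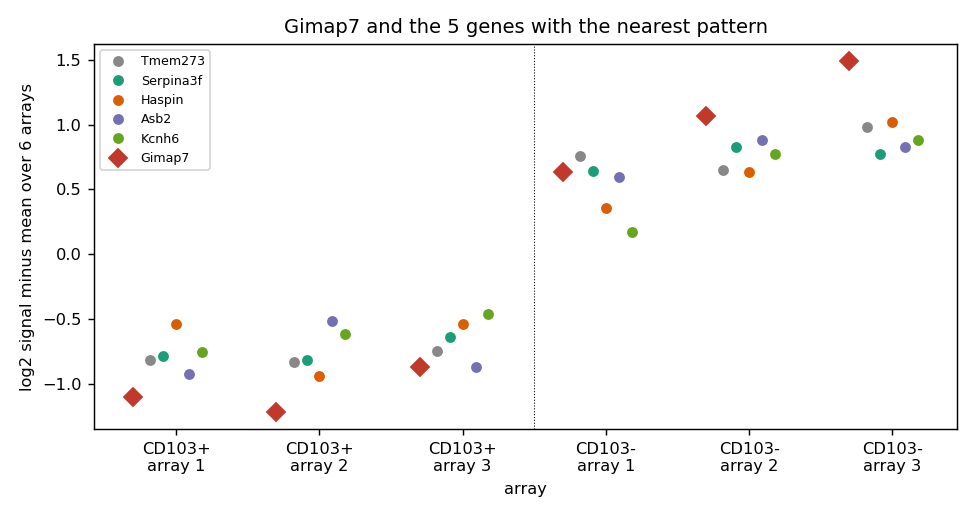
Log2 signal minus the mean over 6 arrays (vertical axis) on each CD103+ and CD103- array for Gimap7 (red diamonds) and the 5 genes with the nearest pattern (dots). Gimap7 is lower on every CD103+ array than on every CD103- array, as are the other 5, with differences of -2.12 for Gimap7 and -1.59 to -1.22 for the others. The 5 were picked for nearness to Gimap7 on these same arrays, so their shared direction follows from that choice.

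Markers of other cells were read beside the Gimap values. Macrophage markers were called as higher in CD103+ cells in 9 of 10 measured genes, beside 1.16% of all genes. Of these 10, 7 were detected on no CD103- array and passed the filter through the CD103+ arrays alone. The count of 9 therefore partly follows from the filter. Csf1r, the measured marker not called, lay at 0.31 and overlapped between the populations. The summed normalised signal of macrophage markers over 14 genes was 3004.6 to 3884.3 on the CD103+ arrays and 407.9 to 484.4 on the CD103- arrays. The macrophage markers with the smallest limma adjusted p were Lyz2, at a difference of 4.98 (0.00119), and C1qb (0.00255), Sirpa (0.00520), Vcam1 and Apoe (0.00521 each). The last 4 went undetected on the CD103- arrays and were at least 7.97-fold, 4.12-fold, 8.73-fold and 6.33-fold higher. Cd14 and Fcgr1 were detected on no array. Markers of conventional T cells, which also express Gimap genes, summed to 1809.9 to 2252.5 on the CD103+ arrays and 2392.0 to 2611.6 on the CD103- arrays over 8 genes, with none of 5 measured genes called and Cd8a, Ccr9 and Rag2 detected on no array. Most of this sum came from Cd8b1, whose brightest probe lay at -0.38, while Cd4 lay at -0.47, Dntt at -0.17, Foxp3 at 0.23 and Rag1 at 0.31. B cell markers summed to 273.0 to 324.5 on the CD103+ arrays and 248.8 to 332.9 on the CD103- arrays over 7 genes, with Pax5, Blnk and Cr2 detected on no array. None of 3 measured genes was called: Cd79b lay at 0.72, Cd22 at 0.57 and Fcer2a at -0.54. The other B cell genes did not pass the detection filter, so this sum also holds much signal near background and does not show equal B cell content. Markers of NK cells, over 6 genes, summed to 4004.2 to 4562.2 on the CD103+ arrays and 3139.3 to 3983.2 on the CD103- arrays. Ncr1 and Eomes were detected on no array. Of 4 measured genes 1 was called, Klri1, as higher in CD103+ cells, beside 1.16% of all genes. It lay 1.34-fold or more over the bound of the CD103- arrays (limma adjusted p = 0.0136). Blocking on the replicate number ended this call (limma adjusted p = 0.0565). Its probe went undetected on the CD103- arrays and passed the filter through the CD103+ arrays alone. The count of 1 therefore partly follows from the filter. Another kept Klri1 probe, ILMN_3142299, lay at 1.13 and was not called (limma adjusted p = 0.0534). Over 22 alternative processings Klri1 was called in 10. Dendritic cell markers summed to 322.4 to 386.3 on the CD103+ arrays and 393.8 to 450.0 on the CD103- arrays, with Itgax, Flt3, Xcr1, Clec9a, Cd209a and Batf3 detected on no array. Stromal and endothelial markers summed to 233.9 to 257.5 on the CD103+ arrays and 316.2 to 339.9 on the CD103- arrays, with Epcam, Cdh5, Col1a1, Col3a1 and Pdgfrb detected on no array. The dendritic and the stromal list each had 1 measured gene of 8, not called. These were Siglech at -0.48 and Pecam1 at -1.02, each by its brightest probe. The other genes of these lists did not pass the detection filter, so both sums hold much signal near background. The sums for conventional T cells, dendritic cells and stroma were each lower on every CD103+ array than on every CD103- array. The part of other cells in the Gimap differences was not tested.

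**Figure D5:**
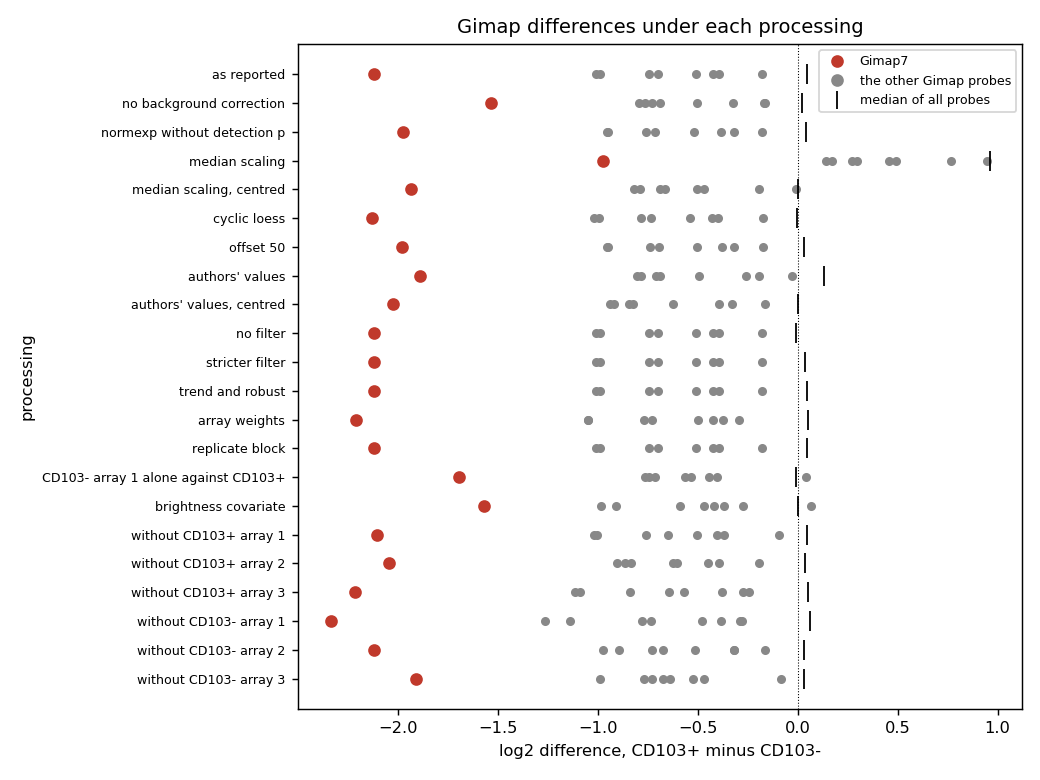
Log2 difference, CD103+ minus CD103- (horizontal axis), of Gimap7 (red), the other 8 Gimap probes (grey) and the median of all kept probes (black bar) under each processing (vertical axis). Gimap7 stays below 0 throughout, from -2.33 to -0.98; under median scaling the median of all probes moved to 0.96 and the other Gimap probes lie above 0 and below that median.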

How the data were processed

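The deposited intensity table gives each probe a fluorescence reading on each array, unscaled and with background included, per the file headers. The column beside each reading, also deposited, was taken as its detection p. The authors' deposited log2 values have array medians of 5.18 to 5.42, and how they were scaled or centred is unknown. Of 45281 probes, 18 with values moved by a column were left out. Of the rest, 34874 carried 1 gene symbol, 18 carried several and 10371 carried none. Readings went through neqc of limma 3.58.1 in R 4.3.3 (offset 16), and a probe stayed in if 3 or more of the 6 arrays had it at a detection p below 0.05. CD103+ minus CD103- was fitted with lmFit and eBayes over 17462 probes, two-sided, with Benjamini-Hochberg adjustment and a threshold of 0.05; the fit was tested on simulated data. Each gene is given by its brightest kept probe. A probe undetected throughout a population is given as a bound: on each array its own value stood in, or the lowest value of any detected probe where that was larger. The number of arrays limits the precision. Which animals or sorts stand behind each biological replicate is not given, and p-values measure the spread between these arrays.

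No label pairs the replicate numbers. Deviations of same-numbered arrays from their population means correlated at 0.170, 0.125 and 0.305 over probes, and those of different numbers at -0.231 to 0.0824. Deviations within a population sum to 0 for each probe, so the low values for different numbers partly follow from those for the same number. On these values the numbers were taken to pair the arrays. The differences and calls reported are nonetheless from the fit without the block. These calls, and the shares over all probes and genes, therefore leave the pairing out. Calls with the number as a block are given for the Gimap probes, over all probes and for named genes whose call ended. The shares over genes and the calls in the lists were not counted again with the block. The members and lists were chosen with earlier results of these data known. Named genes were all Gimap probes, the 3 sort genes, the neighbours on each side, up to 4 called genes per list (with ties) and the 5 genes nearest to Gimap7.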

Additional observations from a re-analysis of the deposited data

How the results depend on the processing

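Over 22 alternatives Gimap7 stayed lower in CD103+ cells, from -2.33 to -0.98, and was called by limma in 17. It was not called under median scaling (-0.98), with array brightness as a covariate (-1.57) or without CD103+ array 1, 2 or 3. The Gimap probes called, 1 of 9 as reported, were 5 without background correction, 3 each with normexp, cyclic loess, an offset of 50 or the authors' values centred, 2 each with the authors' values, the stricter filter or array weights, 6 with a trended robust fit, and 0 under median scaling or the brightness covariate (2 and 4 at an unadjusted p under 0.05, as were 57.2% and 8.24% of all kept probes). The unadjusted counts take either direction. Under median scaling only 1 of the 9 Gimap probes lay below 0, so at least 1 of the 2 was higher in CD103+ cells. Leaving out 1 array gave 0 to 3, with 6 at an unadjusted p under 0.05 in each fit that gave 0, as were 8.84% to 12.1% of all kept probes. The family was chosen on this contrast, and none of these unadjusted counts lends a lost call support.

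The count over all probes, 206, became 324 without background correction, 7154 under median scaling, 68 with it centred, 313 with the authors' values, 369 with the trended robust fit, 397 with array weights, 83 with the replicate block, 135 against CD103- array 1 alone, 7 with the brightness covariate and 60 at an adjusted p of 0.01. It was 52 to 857 with 1 array left out (52, 59 and 54 without CD103+ array 1, 2 and 3, and 857, 120 and 114 without CD103- array 1, 2 and 3). The block changed no Gimap call, leaving 1, and ended those of Tmem176a, Klri1 and Haspin (limma adjusted p = 0.0683). The 5 macrophage markers with the smallest limma adjusted p were not called with the brightness covariate (limma adjusted p = 0.0749 to 0.171).

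Median scaling moved the median of all kept probes to 0.96, and the authors' values to 0.13. Under median scaling signs turned for Gimap1 (0.30 and, on the second probe, 0.17), Gimap4 (0.46), Gimap5 (0.77 and 0.14), Gimap6 (0.27), Gimap8 (0.49), Gimap9 (0.95), Aoc1 (0.22), Cd44 (0.98), Klrb1c (0.65) and Rarres2 (0.68), all but Cd44 below that median. With centring Cd44 alone turned (0.018). Against CD103- array 1 alone Gimap9 was at 0.044 and Aoc1 at 0.12, and with the brightness covariate they were at 0.065 and 0.12. With 1 array left out Cd44 ran from -0.16 to 0.017 and Repin1 from -0.17 to 0.29. The cause of these changes was not tested.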

Other observations

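Within the CD103- population, Gimap7 and the second Gimap1 probe spread most among the Gimap probes other than Gimap4, and over the same arrays. Gimap7 lay at -0.43, 0.00 and 0.43 from the population mean on CD103- arrays 1, 2 and 3, and the second Gimap1 probe at -0.55, 0.03 and 0.52. Gimap4 had its lowest value on the array where those were highest, at 0.29, 0.21 and -0.50. Gimap8 lay at 0.05, -0.02 and -0.04, and Gimap6 at 0.02, 0.03 and -0.05. These are 3 arrays of differing brightness, and no test was made.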
